A study of Ovis aries with 7 samples.

Results

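The transcripts of the sheep mitochondrial genome were measured in tail adipose tissue of 7-month-old male lambs of 2 Iranian breeds, the thin-tailed Zel (n = 4) and the fat-tailed Ghezel (n = 3). The lambs were untreated, were kept on the same diet, and gave 1 poly(A)-enriched library each. A library is called by its breed and its deposited replicate number. All table rows with a position on the sequence MT were taken, which gave 145 of the 261693 rows of the 7 tables. Zel 1 listed 37 such rows, Zel 3 listed 12, Zel 4 listed 36, Ghezel 1 listed 23 and Ghezel 3 listed 37. Zel 2 and Ghezel 2 listed none, and a row that a library does not list was treated as missing and not as 0.

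Mitochondrial DNA is a small circle that encodes core subunits of the respiratory chain and of ATP synthase, together with the rRNAs and tRNAs of the mitochondrial ribosome. Both strands are transcribed as long precursors, which are cleaved largely at the tRNAs that lie between the other genes. Most of the resulting mRNAs, and the rRNAs to a lesser extent, carry short poly(A) tails, so poly(A) enrichment keeps them to differing degrees. In adipose tissue, mitochondria oxidize fatty acids and supply metabolites and ATP for lipid synthesis.

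The 145 rows fall on 42 distinct spans. Of these, 33 have the span of 1 of the 37 mitochondrial genes of the RefSeq table exactly, and 2 run from end to end of a pair of neighbouring genes (ATP8 with ATP6, and ND4L with ND4). Sorted by position, the spans comprise 2 rRNA rows, 22 tRNA-sized rows (under 100 bases), 11 protein-coding rows, 5 spans in the control region and 2 spans that merge many genes. The merged rows were MT:1-13697 in Zel 3, which contains 32 genes, and MT:3841-11552 in Ghezel 1. As a result, every rRNA and protein-coding row was listed on its own in only 3 libraries, Zel 1, Zel 4 and Ghezel 3. The names below are those of the genes with these spans, and coordinates are those of the deposited tables, for which the labels name Oar_v3.1.

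The level is given as FPKM, the number of fragments relative to the length of the transcript and to the mapped fragments of the library. The upper bound of the Cufflinks confidence interval lies 2 standard deviations above the FPKM. If the interval holds counting error alone, both together imply a number of fragments for each row. The implied fragments of all rows sum to between 7308110 and 7827370 per library. Zel 3 and Zel 4 stand apart from the other libraries in the length of their assembled loci, with medians of 963 and 1409 bases against 3641 to 8935 bases, and results are therefore also given without them. The tables pair no nuclear gene of the respiratory chain, of mitochondrial transcription or of the adipocyte marker list with a symbol. These genes were not analysed here, and the labelled tissue was not checked against its markers. In bulk tissue, fewer cells with many mitochondria and less mitochondrial RNA per cell cannot be told apart. Reads shared with nuclear copies of mitochondrial DNA could also change these values, and their number is unknown.

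All 22 tRNA-sized rows were listed at 0 wherever they appeared. This covers 91 values, 22 each in Zel 1, Zel 4 and Ghezel 3, 16 in Ghezel 1 and 9 in Zel 3, and the upper bound of the interval was 0 in all of them. The tRNAs carry amino acids to the mitochondrial ribosome, and their rows are 60 to 75 bases long. With all values tied, no tRNA-sized row had a higher level than another. Rows under 100 bases elsewhere in the genome were nearly always at 0 too, with between 3 and 7 rows above 0 per library (0.194% to 0.454% of such rows). A listed 0 for a row shorter than the reads therefore does not distinguish the mitochondrial tRNAs from other short rows. None of the other 54 mitochondrial values was 0.

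The 2 rRNA rows, 12S and 16S, encode the RNAs of the small and the large mitochondrial ribosomal subunit and were the lowest or among the lowest of the long rows. The 12S row (MT:69-1026) had an FPKM of 17.1 in Zel 1, 11.1 in Zel 4, 32.0 in Ghezel 1 and 70.3 in Ghezel 3. The 16S row (MT:1094-2667) had an FPKM of 97.0 in Zel 1, 53.9 in Zel 4, 159 in Ghezel 1 and 152 in Ghezel 3. At both rows, the 2 Ghezel libraries lay above the 2 Zel libraries, and the groups did not overlap. The mean FPKM of 12S was 14.1 ± 4.21 (SD, n = 2) for Zel against 51.1 ± 27.1 (SD, n = 2) for Ghezel. For 16S the Zel mean was 75.5 ± 30.5 (SD, n = 2) and the Ghezel mean was 155 ± 5.40 (SD, n = 2). Of the 6 mitochondrial rows listed in at least 2 libraries of each breed, these 2 were separated in this way, while 716 of 8049 loci of the nuclear genome (8.9%) showed the same separation in the same 4 libraries. The exact permutation test gave p = 0.333 for each rRNA row, which is the smallest value that 2 against 2 libraries can give.

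**Figure D1:**
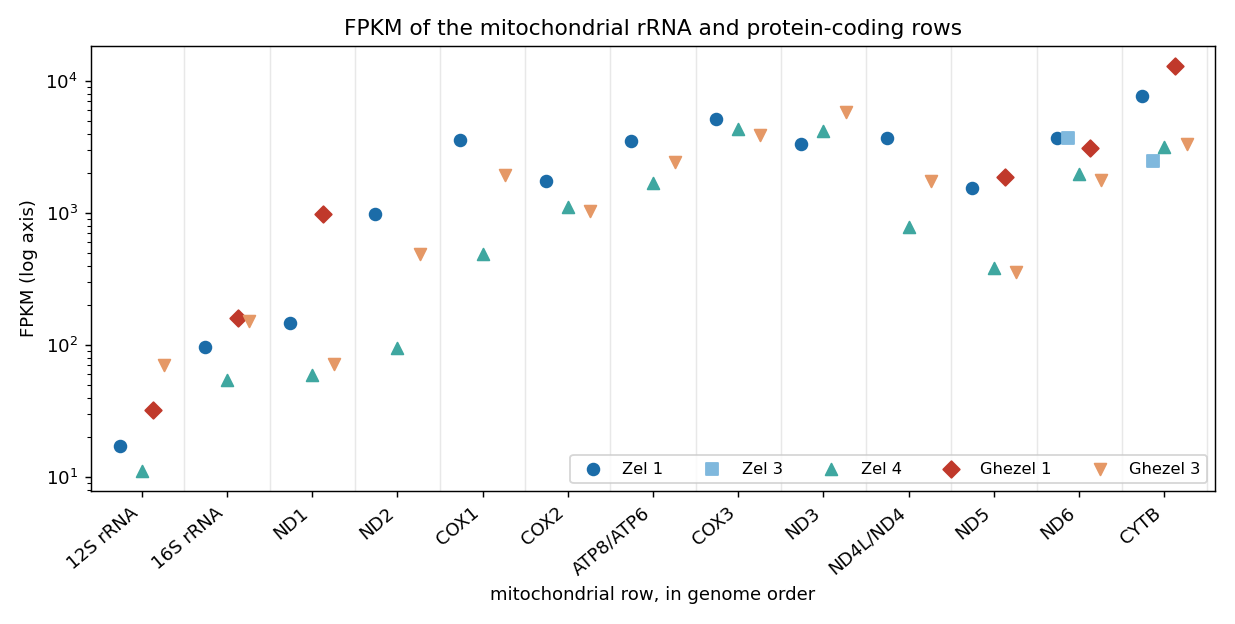
FPKM (log axis) of the 2 rRNA rows and the 11 protein-coding rows, in genome order, with 1 point for each library that lists the row. The rRNA rows and ND1 lie mostly at the bottom, the CYTB values range from 2487 to 12951, and only ND6 and CYTB have points from 5 libraries.

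The ratio of 16S to 12S FPKM was 5.68 in Zel 1, 4.85 in Zel 4, 4.98 in Ghezel 1 and 2.16 in Ghezel 3. Ghezel 3 was thus the low library, while Ghezel 1 lay between the 2 Zel libraries. Zel had a mean log2 ratio of 2.39 ± 0.16 (SD, n = 2) against 1.71 ± 0.85 (SD, n = 2) for Ghezel, with an exact permutation p = 0.667. The rRNA rows made up 1.36% of the implied mitochondrial fragments in Zel 1, 2.2% in Zel 4, 1.85% in Ghezel 1 and 4.64% in Ghezel 3. This share overlapped between the breeds (exact permutation p = 0.667). The difference of -1.46 percentage points (Zel minus Ghezel) became -0.0688 without Ghezel 3, when Ghezel 1 was the only Ghezel library. The total behind this share contains rows whose implied fragments are lower bounds, as given below, so the share may be too high. As a share of the summed mitochondrial FPKM, the rRNA rows held 0.322% in Zel 1, 0.354% in Zel 4, 0.485% in Ghezel 1 and 0.952% in Ghezel 3. On this measure the breeds did not overlap, with an exact permutation p = 0.333, again the smallest possible. The Ghezel 1 total, however, includes a merged row with an FPKM of 20304, which is on another footing than separate rows, as given below. The share of Ghezel 1 is therefore not comparable with the others, and this separation may depend on how its rows were merged, which was not tested. Counted as FPKM times row length, the protein-coding rows together held 212 times the rRNA signal in Zel 1, 153 times in Zel 4 and 64.5 times in Ghezel 3.

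Complex I (NADH dehydrogenase) has 7 subunits of mitochondrial origin, which appear in 6 rows. ND1 (MT:2745-3699) had an FPKM of 147 in Zel 1, 59.3 in Zel 4, 987 in Ghezel 1 and 71.6 in Ghezel 3. Only Ghezel 1 was high, and the other Ghezel library lay between the 2 Zel libraries. Without Ghezel 1, the log2 difference (Zel minus Ghezel) turned from -1.37 to 0.53. In Ghezel 1, the ND1 row ends just upstream of the merged row.

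ND2 (MT:3910-4951) had an FPKM of 980 in Zel 1, 94.9 in Zel 4 and 487 in Ghezel 3. It was the row with the widest range among the 3 libraries that separate all rows, 10.3 times from the lowest to the highest, and both extremes were Zel libraries. ND3 (MT:9469-9814), the shortest protein-coding row, had an FPKM of 3342 in Zel 1, 4187 in Zel 4 and 5839 in Ghezel 3. ND4L with ND4 (MT:9885-11552) had an FPKM of 3703 in Zel 1, 779 in Zel 4 and 1736 in Ghezel 3. In contrast to ND3, this row was highest in Zel 1.

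ND5 (MT:11754-13574) had an FPKM of 1549 in Zel 1, 382 in Zel 4, 1884 in Ghezel 1 and 360 in Ghezel 3. Each breed thus had 1 high and 1 low library. The log2 difference was 0.04 (SE 1.09), and its sign changed without scaling of the libraries (-0.10) and under quantile normalization (-0.35). ND6 (MT:13558-14085) was listed in 5 libraries, with an FPKM of 3705 in Zel 1, 3688 in Zel 3, 1989 in Zel 4, 3130 in Ghezel 1 and 1768 in Ghezel 3. This row varied least among those listed in 4 or 5 libraries, by 2.1 times, and the breeds overlapped. ND6 is encoded on the strand opposite to the other protein-coding genes, and the tables give no strand, so its reads cannot be told apart from those of the other strand.

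CYTB, the only mitochondrially encoded subunit of complex III (cytochrome bc1), was the other row listed in 5 libraries. CYTB (MT:14159-15298) had an FPKM of 7759 in Zel 1, 2487 in Zel 3, 3171 in Zel 4, 12951 in Ghezel 1 and 3343 in Ghezel 3. Ghezel 1 and Zel 1 were the high libraries, and the breeds overlapped. Zel had a mean of 4473 ± 2867 (SD, n = 3) against 8147 ± 6794 (SD, n = 2) for Ghezel, with an exact permutation p = 0.7, where 3 against 2 libraries can give no p below 0.1. Without Ghezel 1, the log2 difference of -0.40 became 0.60. Among the expressed loci of more than 300 bases, CYTB ranked at position 10 in Zel 1, 138 in Zel 3, 97 in Zel 4, 6 in Ghezel 1 and 55 in Ghezel 3.

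Complex IV (cytochrome c oxidase) has 3 mitochondrial subunits, which form its catalytic core. COX1 (MT:5332-6876) had an FPKM of 3574 in Zel 1, 491 in Zel 4 and 1951 in Ghezel 3. COX2 (MT:7019-7702) had an FPKM of 1757 in Zel 1, 1103 in Zel 4 and 1029 in Ghezel 3. COX3 (MT:8616-9399) had an FPKM of 5183 in Zel 1, 4346 in Zel 4 and 3916 in Ghezel 3. The 3 subunits therefore differed in how much they varied, with ranges of 7.28 times for COX1, 1.71 times for COX2 and 1.32 times for COX3. The row of ATP8 with ATP6 (MT:7775-8614), subunits of the membrane part of ATP synthase, had an FPKM of 3524 in Zel 1, 1684 in Zel 4 and 2438 in Ghezel 3. With a single Ghezel library, none of these 4 rows, nor ND2, ND3 and ND4L with ND4, was tested between the breeds.

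In the fit of all loci with limma, a locus counted as changed when its log2 fold change exceeded 1.1 in size and its adjusted p was below 0.05. Of the 6 mitochondrial rows that could be tested none met both limits, against 0 of 8204 loci in all (0%). At an unadjusted p under 0.05, limma gave 289 loci in this fit, and none of the 6 rows was among them. The log2 fold change (Zel minus Ghezel, on the scale of log2(scaled FPKM + 1)) was -1.57 (SE 0.71) for 12S and -0.96 (SE 0.65) for 16S, both with an adjusted p = 0.769. It was -1.37 (SE 1.33) for ND1, 0.69 (SE 0.73) for ND6 and -0.40 (SE 0.85) for CYTB. ND6 changed sign under quantile normalization (-0.20). The median over all loci was -0.09, and -0.24 without scaling. Relative to this median, 4 of the 6 rows were on the lower side in Zel. In this fit, missing values were dropped, so 12S, 16S, ND1 and ND5 rest on 4 libraries and ND6 and CYTB on 5.

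Summed over all mitochondrial rows, the FPKM was 35484 in Zel 1, 11081 in Zel 3, 18384 in Zel 4, 39448 in Ghezel 1 and 23293 in Ghezel 3. The mitochondrial rows took 2.97% of all implied fragments in Zel 1, 0.731% in Zel 3, 1.89% in Zel 4, 3.19% in Ghezel 1 and 2.06% in Ghezel 3. Ghezel 1 and Zel 1 were again the high libraries, and the breeds overlapped. The Zel share was 1.86 ± 1.12% (SD, n = 3) and the Ghezel share 2.62 ± 0.803% (SD, n = 2) (exact permutation p = 0.4, smallest possible p = 0.1). Without Zel 3 and Zel 4 the difference changed sign, from -0.758 to 0.35 percentage points, but Zel 1 was then the only Zel library. All of these shares include rows whose implied fragments are lower bounds, as given below, which limits the test on them. The FPKM of the rRNA and protein-coding rows was also multiplied by the full row length. If that length underlies the FPKM, these rows held 3.60% of the mapped fragments in Zel 1, 1.47% in Zel 4 and 2.00% in Ghezel 3. The 12 exact tests on rows, shares and ratios that were adjusted together had a Benjamini-Hochberg adjusted p between 0.8 and 1. The exact test on the rRNA share of summed FPKM was not among them. The lambs are separate animals, so the spread within a breed contains both biological and technical variation.

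The shares of Zel 3 and Ghezel 1 rest on merged rows, which imply few fragments for their FPKM. The merged row of Ghezel 1 had an FPKM of 20304 and 7337 implied fragments. In the same window, the 7 rows of Zel 1, Zel 4 and Ghezel 3 had a summed FPKM of 22063, 12684 and 17396 and implied 92149, 74208 and 80751 fragments. The merged row of Zel 3 had an FPKM of 4906 and 3617 implied fragments, while the 11 separate rows of that window summed to an FPKM of 23874 in Zel 1, 13190 in Zel 4 and 18050 in Ghezel 3. If each merged span were 1 transcript, its FPKM would correspond to 15.7% of the mapped fragments in Ghezel 1 and to 6.72% in Zel 3. Counted in the same way, the separate rows of the first window come to 2.21%, 0.918% and 1.43% in Zel 1, Zel 4 and Ghezel 3. Those of the second window come to 2.52%, 1.00% and 1.53%. The FPKM of a merged row is therefore on another footing than the sum of separate rows.

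The implied fragments had a ceiling at certain separate rows as well. The 5 rows that touch 2 annotated genes (COX1, ATP8 with ATP6, ND4L with ND4, ND5 and ND6) implied between 1997 and 2294 fragments in all of their 18 values, whereas their FPKM ranged from 360 to 3705. The half-width of their interval was 4.18% to 4.48% of the FPKM throughout. At the 8 rows that touch 1 gene, in contrast, the implied fragments rose with the FPKM, from 262 (12S in Zel 1) to 208693 (CYTB in Ghezel 1). The half-width there fell from 12.4% to 0.438% of the FPKM. The implied fragments of the first 5 rows are thus lower bounds, and comparisons of these rows rest on the FPKM.

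**Figure D2:**
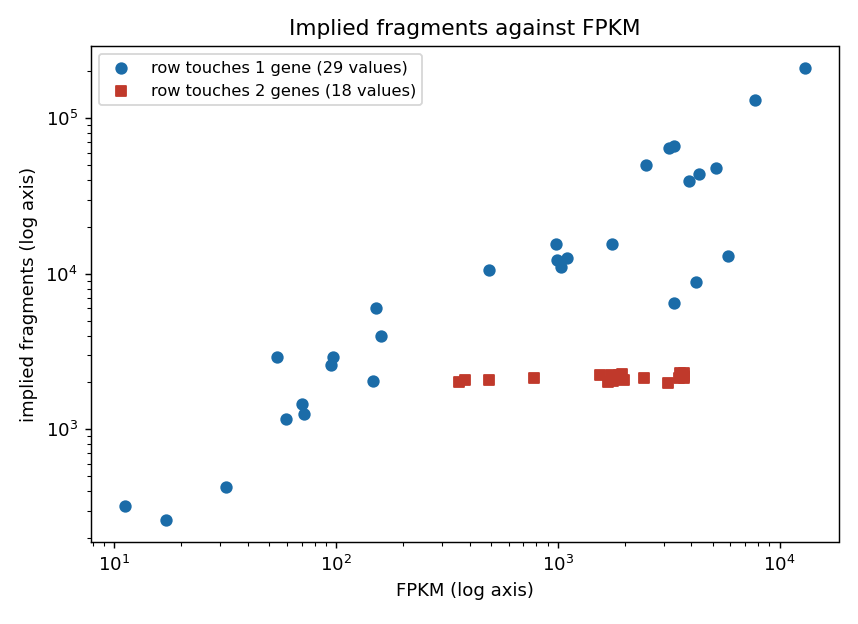
Implied fragments against FPKM, both on log axes, for the rRNA and protein-coding rows in 5 libraries. The 18 values of rows that touch 2 genes lie on a flat band between 1997 and 2294 implied fragments, while the 29 values of rows that touch 1 gene rise with the FPKM.

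The composition of the mitochondrial mRNAs was compared in Zel 1, Zel 4 and Ghezel 3, as shares of the summed FPKM of the 11 protein-coding rows. The highest row was CYTB in Zel 1 (22.0%), COX3 in Zel 4 (23.8%) and ND3 in Ghezel 3 (25.5%). ND1 was the lowest row in all 3 libraries, with 0.417%, 0.324% and 0.312%. ND1 was also far below ND6 or ND4L with ND4, which encode subunits of the same complex. ND2 was the second lowest in Zel 1 (2.78%) and Zel 4 (0.519%), and ND5 in Ghezel 3 (1.57%).

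The shares were also summed by complex. The complex I rows held 38.1% in Zel 1, 41.0% in Zel 4 and 44.7% in Ghezel 3. The complex IV rows held 29.8%, 32.5% and 30.1%, and the ATP synthase row held 10.004%, 9.21% and 10.6%. CYTB, for complex III, held 22.0%, 17.3% and 14.6%. Across the 11 rows, the log2 FPKM correlated with a Pearson r of 0.855 between Zel 1 and Zel 4, 0.927 between Zel 1 and Ghezel 3 and 0.906 between Zel 4 and Ghezel 3. These are correlations over rows of 1 genome and not over independent replicates. The Spearman correlations of the same pairs were 0.755, 0.709 and 0.9, so the pair most alike depends on the statistic. By both statistics, Zel 4 was no closer to the other Zel library than to Ghezel 3.

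**Figure D3:**
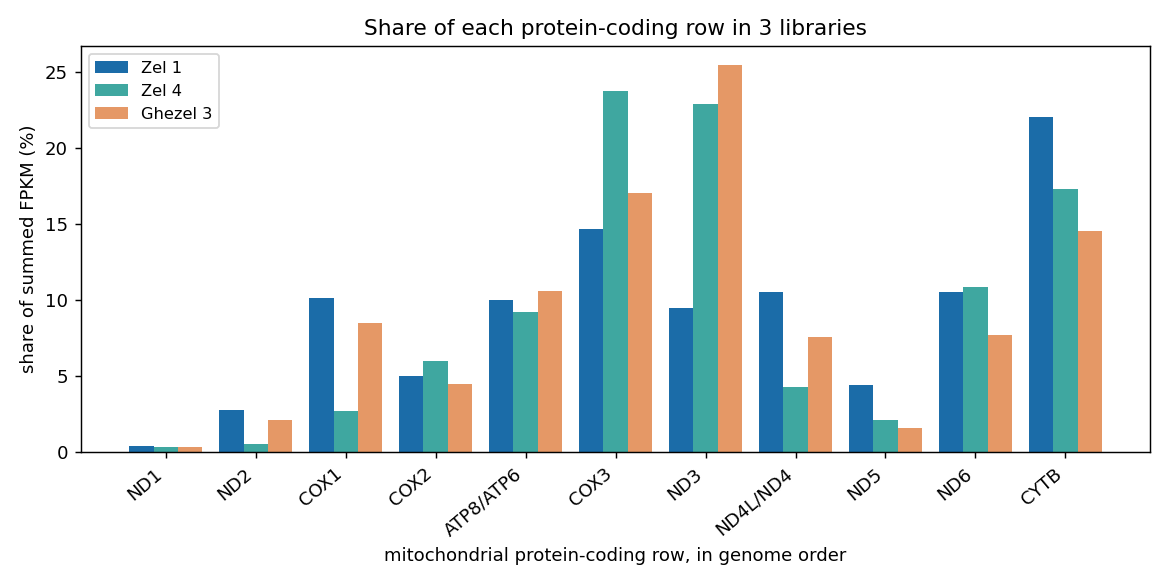
Share (%) of each of the 11 protein-coding rows in their summed FPKM, with 1 bar per row for Zel 1, Zel 4 and Ghezel 3. CYTB is the tallest bar in Zel 1, COX3 in Zel 4 and ND3 in Ghezel 3, and ND1 stays below 0.5% in each.

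The leading place of ND3 depends on the measure. ND3 implied 6452 fragments in Zel 1, 8886 in Zel 4 and 13051 in Ghezel 3, while CYTB implied 130487, 64672 and 66316. Per kilobase of row, ND3 had 25683 implied fragments in Zel 4 and 37720 in Ghezel 3, against 56730 and 58172 for CYTB. By this measure CYTB exceeded ND3 in all 3 libraries, although its FPKM was lower than that of ND3 in Zel 4 and Ghezel 3. The measure per kilobase uses the full row length, which need not be the length behind the FPKM. It therefore does not show that the FPKM of ND3 is too high. Among the rows that touch 1 gene, the implied fragments per kilobase for each unit of FPKM were lowest at ND3, the shortest row, with 5.58, 6.13 and 6.46 in Zel 1, Zel 4 and Ghezel 3, against 14.8, 17.9 and 17.4 at CYTB. This factor also varied among the other rows, in Zel 4 from 12.9 at COX3 to 34.5 at 16S.

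The ratios between libraries tended to be lower at the longer protein-coding rows. Relative to Zel 1, the FPKM in Zel 4 was 1.25 times at ND3 (346 bases) and 0.838 times at COX3 (784 bases), but 0.137 times at COX1 (1545 bases) and 0.246 times at ND5 (1821 bases). The lowest ratio, 0.0968 times, was at ND2 (1042 bases), a row of middle length. For the 5 protein-coding rows under 900 bases the median log2 ratio was -0.67, and for the 6 longer rows it was -2.14. In Ghezel 3, the corresponding medians were -0.53 and -1.06, with 1.75 times at ND3 and 0.232 times at ND5. ND6 (528 bases) was an exception there, with a log2 ratio of -1.07 against -1.09 for ND4L with ND4 (1668 bases). The Spearman correlation of the log2 ratio with row length was -0.818 in Zel 4 and -0.691 in Ghezel 3, over 11 rows that share their libraries and the reference library. The rRNA rows lay above protein-coding rows of like length in both libraries. In Zel 4, the log2 ratio was -0.62 at 12S against -1.31 at ND1, and -0.85 at 16S against -2.86 at COX1. In Ghezel 3, 12S was 4.11 times and 16S 1.56 times the Zel 1 value. The length limit of 900 bases was chosen after the values were seen.

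**Figure D4:**
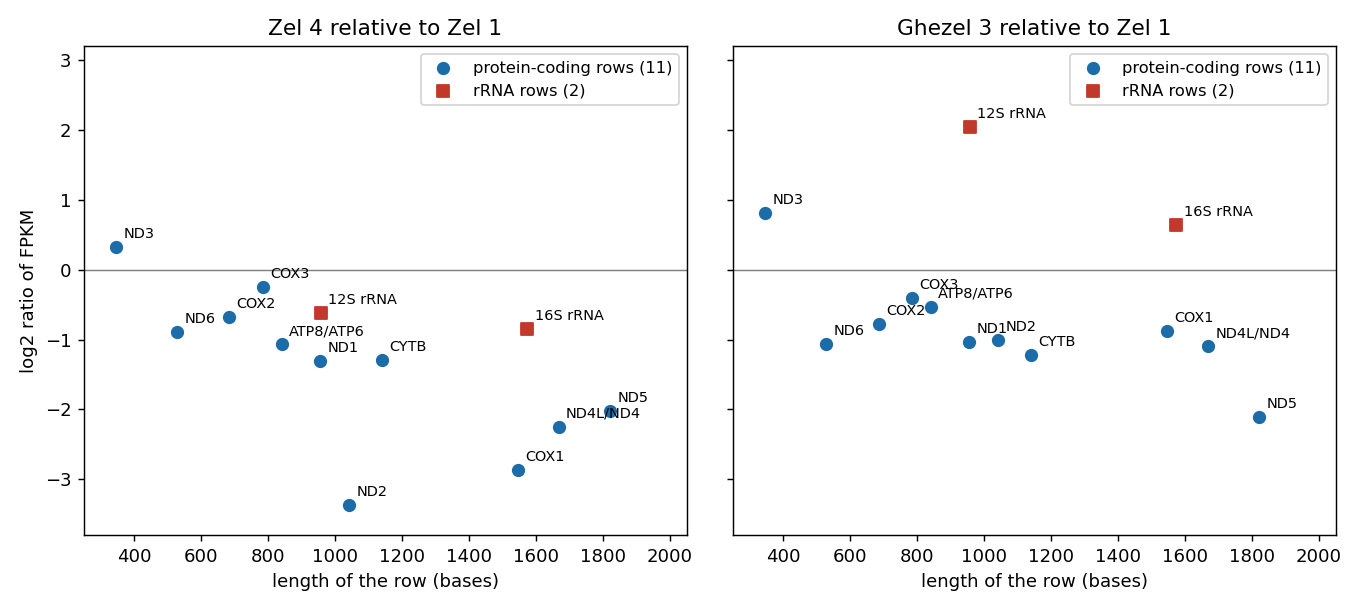
Log2 ratio of the FPKM in Zel 4 (left) and in Ghezel 3 (right) to that in Zel 1, against the length of the row in bases, with 1 point per row. ND3, the shortest row, is the only protein-coding row above 0 in both panels, and the rows of more than 1500 bases reach -2.86 (COX1 in Zel 4) and -2.11 (ND5 in Ghezel 3).

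Among matched loci of the nuclear genome of at most 2000 bases, the same ratios fell less with length. For Zel 4, their median log2 ratio to Zel 1 was 0.81 at up to 500 bases (230 loci) and 0.26 between 1500 and 2000 bases (103 loci). For Ghezel 3, it was 0.36 (240 loci) and 0.10 (106 loci). The Spearman correlation with length was -0.154 over 718 loci in Zel 4 and -0.0824 over 757 loci in Ghezel 3. These spans include introns, unlike those of the mitochondrial rows. In implied fragments, which are usable at the 6 protein-coding rows that touch 1 gene, the ratio of Zel 4 to Zel 1 was 1.38 at ND3, 0.915 at COX3, 0.815 at COX2, 0.571 at ND1, 0.167 at ND2 and 0.496 at CYTB. ND2 was thus low in Zel 4 by both measures, which are not independent, since the implied fragments are computed from the FPKM and its interval.

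For the last 3 protein-coding rows in genome order, ratios within a library could be formed for more libraries. The ratio of CYTB to ND6 FPKM was 0.674 in Zel 3, 1.59 in Zel 4, 1.89 in Ghezel 3, 2.09 in Zel 1 and 4.14 in Ghezel 1. The ratio of ND5 to ND6 was 0.192 in Zel 4, 0.204 in Ghezel 3, 0.418 in Zel 1 and 0.602 in Ghezel 1. Both ratios ordered the libraries in the same way, although they share ND6, and neither separated the breeds (exact permutation p = 0.3 for CYTB to ND6, smallest possible 0.1, and p = 0.667 for ND5 to ND6). The median length of the assembled loci over the whole genome had the same order, with 963 bases in Zel 3, 1409 in Zel 4, 3641 in Ghezel 3, 5400 in Zel 1 and 8512 in Ghezel 1. With 5 libraries this order is a description, and the part of assembly length in the ratios was not tested.

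**Figure D5:**
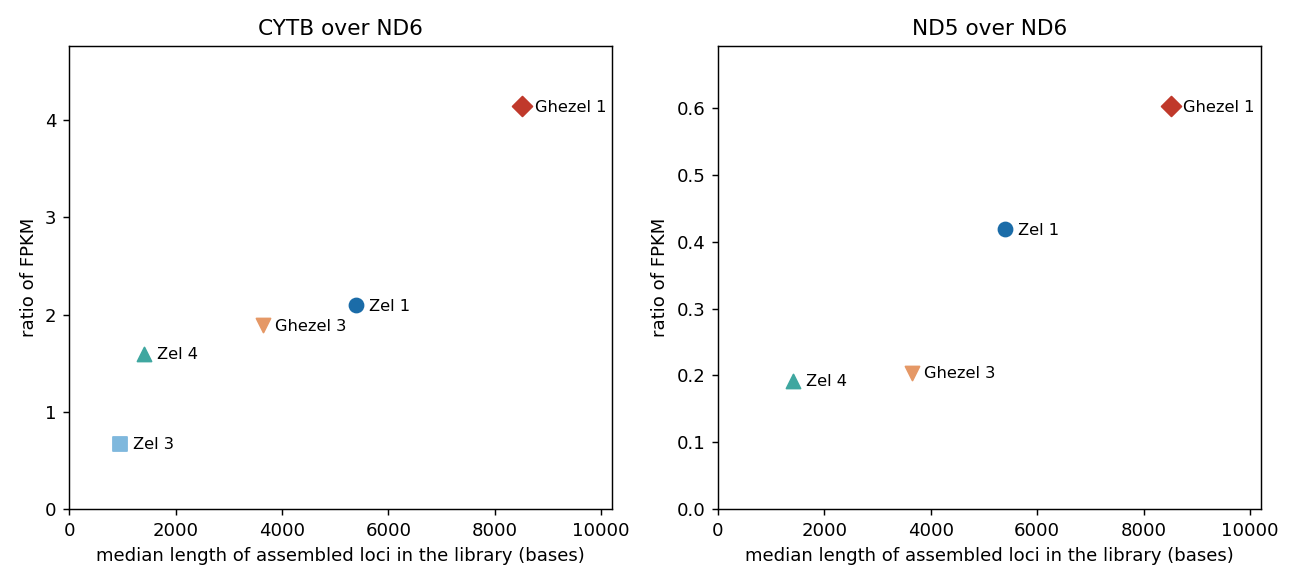
Ratio of CYTB to ND6 FPKM (left, 5 libraries) and of ND5 to ND6 FPKM (right, 4 libraries) against the median length of assembled loci in the library in bases. Both ratios are highest in Ghezel 1 (4.14 and 0.602) and lowest in the libraries with the shortest loci.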

How the data were processed

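The authors checked the reads with FastQC, trimmed them, mapped them with TopHat and assembled and quantified each library with Cufflinks. Their paper gives the sheep genome v4.0, whereas the labels name Oar_v3.1. The sources used here do not give the annotation release. The deposited values are FPKM with confidence bounds and a status, 1 table per library, which the authors had scaled to transcript length and to the number of mapped fragments. Counts were not used here. The status was OK for all 145 mitochondrial rows.

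Rows on MT were named by identical span in the RefSeq table (assembly ARS-UI_Ramb_v3.0), and the coordinates given are those of the deposited tables. The members and gene lists were chosen with earlier results of these data known. All mitochondrial rows were accounted for, every rRNA and protein-coding row was named, and the 5 highest tRNA-sized rows were to be named, which the tie at 0 did not allow. Implied fragments are (2 × FPKM / (upper bound - FPKM)) squared and cover counting error only.

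For the test across the genome, 22115 loci were matched by position in all 7 libraries (reciprocal overlap of at least 0.8), mitochondrial rows were matched by their span, and loci whose mean FPKM reached 1 were kept. FPKM were divided by size factors of 0.707 to 1.30 (median ratios), and log2(scaled FPKM + 1) was fitted with limma 3.58.1 (trend, Benjamini-Hochberg adjustment) in R 4.3.3. The pseudocount of 1 understates changes of low rows. Single rows, shares and ratios were compared with two-sided exact permutation tests over 10 splits (3 against 2) or 6 splits (2 against 2). Their p-values, except that of the rRNA share of summed FPKM, were adjusted by Benjamini-Hochberg with scipy 1.17.1. Both breeds carry replicate numbers 1 to 3. Over loci, the deviations from the breed mean of 2 libraries with the same number correlated with 0.270, 0.151 and 0.306, so a replicate block was set beside the unpaired fit. This link rests on the correlations alone, and 3 pairs with different numbers correlated as well (Zel 2 with Ghezel 1 at 0.303, Zel 4 with Ghezel 3 at 0.271 and Zel 1 with Ghezel 2 at 0.190). Other alternatives were quantile normalization, no scaling, array weights, an overlap of 0.5, no filter on low values, a pseudocount of 0.1, all values whatever their status, the other of FPKM and implied fragments, and leaving out libraries. The fit was tested on simulated data.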

Additional observations from a re-analysis of the deposited data

Results flagged for a closer look

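The control region, which follows the last tRNA-sized row (MT:15371-15436), holds no annotated gene and was not compared on its own. However, 3 libraries listed rows there, all above the level that a count of 0 allows. The region contains the promoters of both strands and the displacement loop. Zel 1 had an FPKM of 57.4 (MT:15737-15946, 9.59 implied fragments) and of 89.3 (MT:16043-16605, 529 implied fragments). Zel 4 had an FPKM of 33.0 (MT:16049-16605, 192 implied fragments). Ghezel 3 had an FPKM of 41.6 (MT:15710-15948, 23.7 implied fragments) and of 91.2 (MT:16049-16610, 554 implied fragments). Zel 3 and Ghezel 1 listed no row in this region.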

How the results depend on the processing

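No mitochondrial row was called under any of the settings tried. Over all loci, limma called 1 locus with array weights, 3 without Zel 3 and Zel 4 and 9 without Ghezel 3, against 0 otherwise. The log2 difference of 12S stayed between -2.11 and -1.05 and that of 16S between -1.12 and -0.82 when single libraries were left out. ND1 ranged from -3.28 to 0.53, ND5 from -1.19 to 1.25 and CYTB from -1.41 to 0.60 (positive without Ghezel 1). CYTB was 0.035 without Zel 3 and Zel 4, when Zel 1 was the only Zel library that lists it. ND5 was -0.10 without scaling, -0.35 under quantile normalization, -0.61 with array weights and -0.44 with the replicate block, and ND6 was -0.20 under quantile normalization. The replicate block changed no call, and gave 0.96 for ND6 and -0.27 for CYTB. For the rows of 4 libraries it left no residual degrees of freedom, so 12S (-1.003), 16S (-0.86) and ND1 (-2.89) are values with no test.

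The mitochondrial share of implied fragments differed between the breeds by -1.33 to -0.191 percentage points when single libraries were left out, by 0.35 without Zel 3 and Zel 4 and by 0.376 in the libraries that list every row apart, which was chosen after seeing the data. The rRNA share of implied fragments differed by -2.86 to -0.0688 percentage points without single libraries. Counted as FPKM times row length, a measure chosen after seeing the data, the rRNA share differed by -0.963 percentage points in Zel 1 and Zel 4 against Ghezel 3. Summed mitochondrial FPKM differed by 0.23 (log2) without Zel 3 and Zel 4. Every mitochondrial comparison without Zel 3 and Zel 4 rests on Zel 1 alone for its breed. The ND5 to ND6 ratio ranged from -1.09 to 0.48 without single libraries and was 0.26 without Zel 3 and Zel 4. Without the overlapping rows ND5 and ND6, the difference in complex I share was -9.37 and that in complex IV share 3.07 percentage points, and in implied fragments that of the ATP synthase share was -0.226. The complex IV difference ranged from -0.213 (without Zel 4, and without Zel 3 and Zel 4) to 2.42. The causes of these changes were not tested. In all, 172 of the recomputed values were counted as unchanged, 18 changed sign and 6 moved. The exact tests could give no p below 0.1, so none of them could cross the threshold of 0.05. Shares and ratios without a p counted as unchanged if they kept their sign and shifted by less than the larger SD within a breed. The tally therefore does not measure how stable the results are. The number of libraries limits every comparison, with 2 or 3 Zel and 1 or 2 Ghezel libraries per row.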
